A study of Macaca mulatta with 10 samples.

Results

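The genes described here are 10 markers of Kupffer cells and other macrophages: CD163, MARCO, CD68, FOLR2, VSIG4, TIMD4, CSF1R, CD5L, MSR1 and MRC1. All probe sets that the platform annotation pairs with exactly 1 symbol, that symbol being one of the 10, were taken. This gave 14 of 52865 probe sets, covering 9 of the 10 genes. CD163, the receptor for haemoglobin bound to haptoglobin, had no probe set paired with its symbol alone and is not analysed here. A probe set entered the test when 5 or more of the 10 arrays had it above their own median, which kept 12 of the 14 marker probe sets and 26653 probe sets in all. Each of the 9 genes kept at least 1 probe set.

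Kupffer cells are the resident macrophages of the liver. They sit in the sinusoids, where they take up bacteria, dead cells and modified lipoproteins from portal blood through scavenger, complement and phosphatidylserine receptors. They are maintained by signals through the CSF1 receptor, and monocytes drawn from the blood can join them in injured liver. The 10 markers differ in how narrowly they mark these cells. MARCO, VSIG4, TIMD4 and CD5L are commonly used for resident Kupffer cells, FOLR2 marks resident macrophages in several human tissues, CD68, CSF1R and MSR1 are shared with other macrophages, and MRC1 is also made by the endothelium of the liver sinusoids.

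Whole-liver RNA of 10 rhesus macaques (Macaca mulatta) was measured on 1-colour arrays, 1 for each animal. The brain-dead group held 5 donors, 2 females and 3 males aged 7 to 18 years, with the age of 1 animal not stated. Brain death was brought about by slowly inflating a balloon catheter placed outside the dura, and pressure was supported with fluid, vasopressin and dopamine, the drugs alone or together. The sample labels give 6 h of brain death, the design text of the series 5 h. The controls were 5 living donors, 3 females and 2 males aged 4 to 20 years, that were sedated, anaesthetised and ventilated for 1 h. Both groups' livers were flushed in situ with preservation solution before recovery. Ventilation time and drugs differed along with brain death, and their parts cannot be told apart. Values below are the authors' linear MAS5 signals, changes are log2 differences of brain-dead minus control, and the number of arrays limits their precision.

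No macrophage marker passed the test for a difference between brain-dead and control livers. Of the 12 marker probe sets tested, 0 passed a Benjamini-Hochberg adjusted p of 0.05 in limma, against 6.1% of all tested probe sets (1627 of 26653; 2.72% higher and 3.39% lower in brain-dead animals). At an unadjusted p under 0.05, 2 of the 12 passed, the second probe set of CD5L and that of FOLR2, against 23.7% of all tested probe sets. In no marker probe set were the groups free of overlap, against 6.93% of all tested probe sets. The changes nevertheless lay mostly to one side: 10 of the 12 were below 0, with a median of -0.41, against 50.2% below 0 and a median of -0.003 over all tested probe sets. By gene, each represented by its probe set with the highest mean signal, 8 of 9 changes were below 0 with a median of -0.43, and MARCO was the exception. Of these 9 genes 0 passed in limma and 1, FOLR2, had an unadjusted p under 0.05, against 6.77% and 25.1% of the 9835 genes tested, and 0 had groups without overlap, against 7.8%. Probe sets of 1 gene share a transcript, so the 12 are not independent of each other. In whole-liver RNA fewer macrophages and less RNA per macrophage cannot be told apart.

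Of the 12 probe sets, 2 had a 95% interval that lay wholly within a 2-fold change in either direction, both of them the lower-signal probe sets of MRC1. In 10 of the 12 the interval stayed below a 2-fold rise, and in 3 it stayed above a 2-fold fall.

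**Figure D1:**
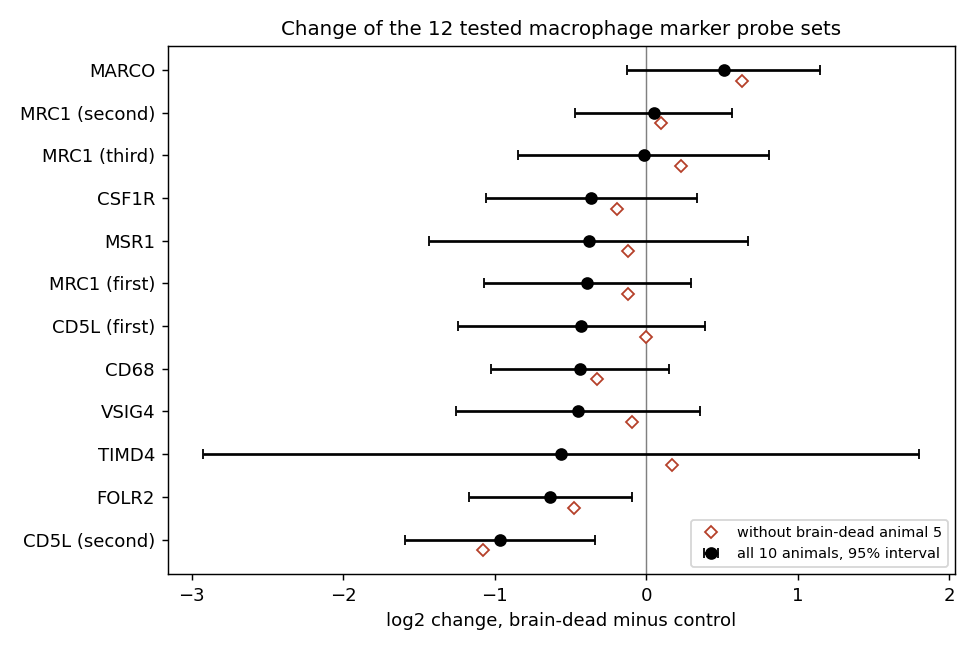
Log2 change of the 12 tested marker probe sets, brain-dead minus control (horizontal axis), from limma. Black points with bars are the estimates over all 10 animals with 95% intervals, and open diamonds are the estimates without brain-dead animal 5; 10 of the 12 points lie below 0, and the bars of CD5L (second) and FOLR2 do not reach 0.

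MARCO and MSR1 are class A scavenger receptors, which bind bacteria and modified lipoproteins at the cell surface. MARCO had signals of 7443, 6787, 7587, 9429 and 5124 in brain-dead animals 1 to 5, against 4889, 6984, 4741, 7771 and 2513 in control animals 1 to 5. Brain-dead animal 4 was the highest and control animal 5 the lowest, and the groups overlapped. The change was 0.51 ± 0.30 (SE, n = 5 per group; limma, Benjamini-Hochberg adjusted p = 0.319), with a 95% interval of -0.13 to 1.15. MARCO was the only marker gene whose leading probe set had a change above 0, and it stayed above 0 under all 23 alternative settings, between 0.26 and 0.67.

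The first MSR1 probe set had signals of 708, 252.4, 905, 158 and 164 in the brain-dead animals, against 471, 530, 456, 612 and 224 in the controls. It lay above the array median in 3 brain-dead and 5 control animals. Brain-dead animals 1 and 3 exceeded every control and animals 4 and 5 lay under every control, so the groups overlapped from both sides (change -0.38 ± 0.49; limma, Benjamini-Hochberg adjusted p = 0.682). The second MSR1 probe set did not pass the filter, with 3 of 10 arrays above the median. Its signals were 222, 91.7, 186, 8.04 and 108 in the brain-dead animals, against 103, 266, 175, 217 and 69.0 in the controls.

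**Figure D2:**
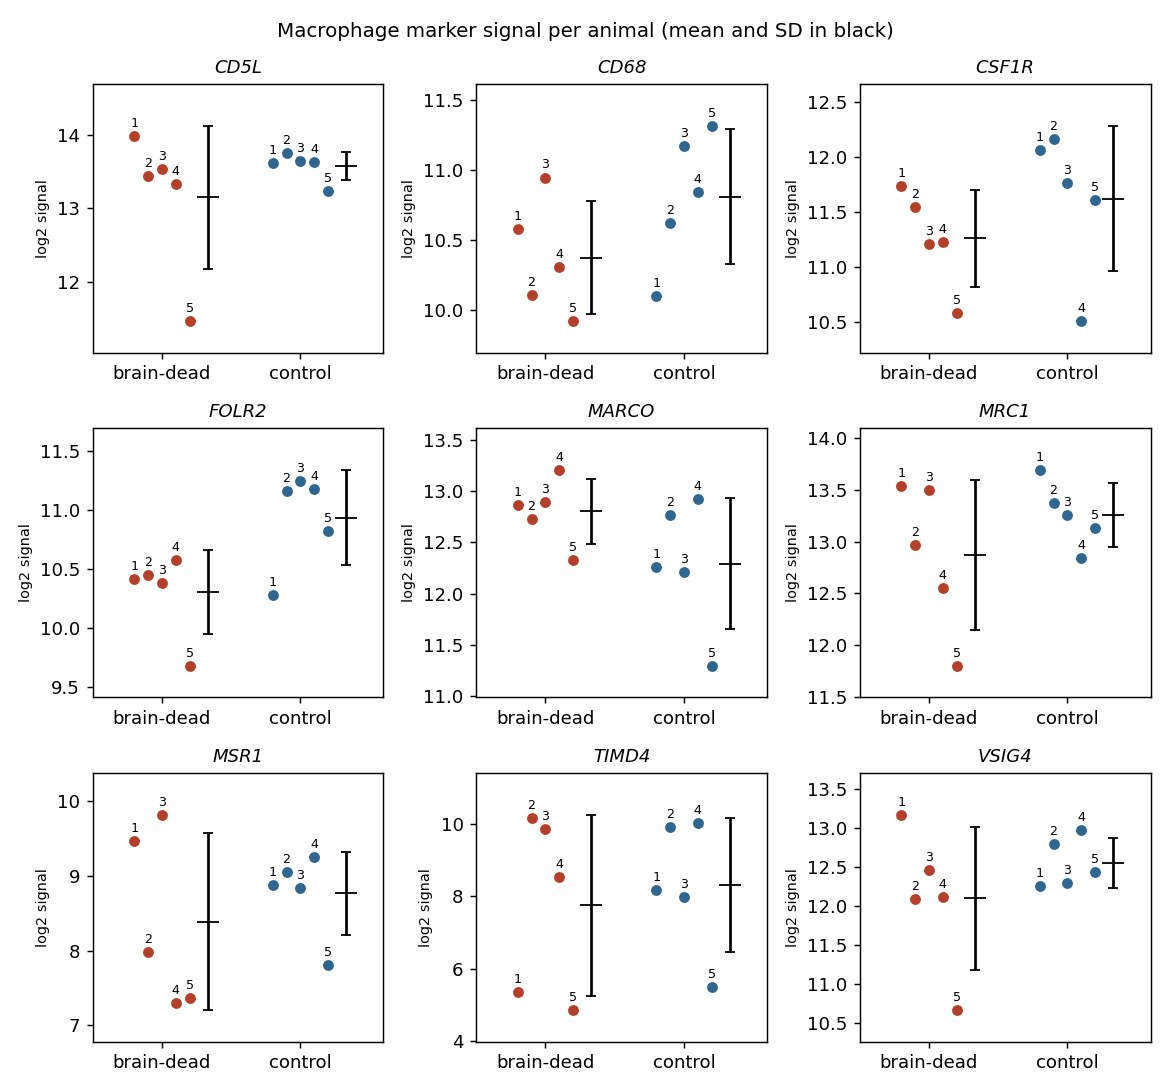
Log2 signal (vertical axis) of the leading probe set of each of the 9 marker genes, with brain-dead animals on the left and controls on the right of each panel. Numbers are the animals and black bars the mean and SD; the groups overlap in every panel, and brain-dead animal 5 lies at the bottom of its group in all of them except MSR1.

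MRC1, the mannose receptor, takes up mannose-bearing glycoproteins and was covered by 3 probe sets. The first had signals of 11873, 8016, 11590.2, 5988 and 3559 in the brain-dead animals, against 13216, 10606, 9793, 7358 and 8983 in the controls. Brain-dead animals 4 and 5 lay below all controls, while animals 1 and 3 exceeded 4 of the 5 controls. Its change was -0.39 ± 0.32 (limma, Benjamini-Hochberg adjusted p = 0.492). The other MRC1 probe sets, the second and then the one of lowest signal, had changes of 0.05 ± 0.24 and -0.02 ± 0.39 (limma, Benjamini-Hochberg adjusted p = 0.930 and 0.985). The log2 ratios between the 3 probe sets did not differ between the groups past the threshold (two-sided exact permutation tests, n = 5 per group, p = 0.270 to 0.841). Sinusoidal endothelium also makes MRC1, and of 9 tested markers of that cell type 0 passed, with 8 changes below 0 and a median of -0.28.

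FOLR2, the beta folate receptor of tissue-resident macrophages, had signals of 1369, 1401, 1336, 1531 and 820.1 in the brain-dead animals. The control signals were 1244, 2287, 2421, 2312 and 1813. Of the controls, 4 of 5 exceeded every brain-dead animal, and control animal 1 lay within the brain-dead range. The change was -0.63 ± 0.25 (95% interval -1.17 to -0.10; limma, unadjusted p = 0.0239, Benjamini-Hochberg adjusted p = 0.143), the lowest among the leading probe sets of the 9 genes. The adjusted p stayed above the threshold under all 23 alternatives, between 0.0770 and 0.306.

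VSIG4 is the macrophage receptor for complement C3b and iC3b, which lets Kupffer cells catch opsonised bacteria from flowing blood. Its signals were 9246, 4386, 5678, 4431 and 1625 in the brain-dead animals, against 4892, 7148, 5052, 8076 and 5567 in the controls. The brain-dead group held both the highest and the lowest animal (change -0.45 ± 0.37; limma, Benjamini-Hochberg adjusted p = 0.499). Without brain-dead animal 5 the change was -0.09.

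TIMD4, the phosphatidylserine receptor by which resident macrophages hold apoptotic cells, varied more between animals than any other tested marker. Its signals were 41.1, 1163, 927, 373 and 28.7 in the brain-dead animals, against 287, 976, 253, 1045 and 44.6 in the controls. Only 3 brain-dead and 4 control animals lay above their array's median, and very low and high animals occurred in both groups. The change of -0.56 ± 1.10 had a 95% interval of -2.92 to 1.80 (limma, Benjamini-Hochberg adjusted p = 0.803), so these data bound the change of TIMD4 only loosely.

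TIMD4 was also the marker with the strongest relation to age. Over the 9 animals whose age is stated, Pearson's r was 0.587 and Spearman's rho 0.681 (exact permutation p = 0.0993 and 0.0496). Over the 12 relations tested the adjusted values were 0.875 and 0.595. Without the 2 animals farthest from the median age r was 0.214, so the value rests on those animals. It was not recomputed within groups, each of which has fewer than 6 animals.

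CSF1R, the receptor for CSF1 and IL34 on which Kupffer cells depend, had signals of 3421, 2984, 2359, 2396 and 1532 in the brain-dead animals. In the controls the signals were 4273, 4606, 3480.3, 1449.5 and 3126. Control animal 4 was the lowest of the 10, and 3 controls exceeded every brain-dead animal (change -0.36 ± 0.32; limma, Benjamini-Hochberg adjusted p = 0.533). Neither CSF1 nor IL34, its ligands, passed the filter on low signals. CSF2RB, the shared beta chain of the receptors for GM-CSF, IL3 and IL5, rose by 1.32 ± 0.22 (limma, Benjamini-Hochberg adjusted p = 0.00642). Its signals were 2428, 2610.3, 2479, 1545 and 3211 in the brain-dead animals, against 889, 957, 1095, 923 and 949 in the controls, with no overlap. CSF2RB is also expressed by granulocytes, and the second CSF2RB probe set did not pass the filter.

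CD68, a glycoprotein of macrophage lysosomes, had signals of 1529, 1103, 1971, 1267 and 968 at its first probe set in the brain-dead animals. The control signals were 1098, 1575, 2299, 1831 and 2546. The lowest of the 10 was a brain-dead animal and the highest a control, with broad overlap between (change -0.44 ± 0.27; limma, Benjamini-Hochberg adjusted p = 0.358). The second CD68 probe set lay above the array median on 1 array and was not tested; its signals ranged from 14.9 to 232 in the brain-dead animals and from 76.4 to 122 in the controls. Of 13 other lysosomal genes tested, 0 passed (1 at an unadjusted p under 0.05, in limma), among them the cathepsin CTSL at 0.28 ± 0.19 and the acid lipase LIPA at -0.59 ± 0.32.

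CD5L, also called AIM, is a protein of the scavenger receptor cysteine-rich family that macrophages secrete into the blood. Its first probe set had signals of 16265, 11139, 11861, 10292 and 2814 in the brain-dead animals, against 12554, 13849.8, 12795, 12746 and 9683 in the controls. The other brain-dead animals spanned the whole range of controls 1 to 4, and control animal 5 was the lowest of its group. The change was -0.43 ± 0.38 with all animals (limma, Benjamini-Hochberg adjusted p = 0.531) and -0.01 without brain-dead animal 5.

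The second CD5L probe set gave another pattern, with signals of 1582, 3814, 2927, 2597 and 3888 in the brain-dead animals, against 6368, 4933, 5259, 3636 and 8377 in the controls. The groups overlapped by control animal 4 alone, which lay below brain-dead animals 2 and 5. The change of -0.96 ± 0.29 (95% interval -1.59 to -0.34) had an unadjusted p of 0.00545 and an adjusted p of 0.0667 in limma with Benjamini-Hochberg adjustment. Its adjusted p fell under 0.05 when control animal 4 was left out (0.0363), with array weights (0.0354) and with a replicate block (0.0407), over a range of 0.0354 to 0.183 for all 23 alternatives.

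Brain-dead animals 1 and 5 and control animal 5 had the most unlike placings at the CD5L probe sets. Brain-dead animal 1 was the highest of 10 at the first and the lowest of 10 at the second. Brain-dead animal 5 was the lowest of 10 at the first and the highest of its group at the second. Control animal 5 was the lowest of its group at the first and the highest of 10 at the second. The log2 ratio of second over first was -3.36, -1.55, -2.02, -1.99 and 0.47 in the brain-dead animals, against -0.98, -1.49, -1.28, -1.81 and -0.21 in the controls. Brain-dead animal 1 had the lowest ratio among the brain-dead animals and brain-dead animal 5 the highest in both groups. The mean difference of -0.54 was smaller than the spread between animals (two-sided exact permutation test, n = 5 per group, p = 0.421, and 0.561 adjusted over 4 such ratios). Which transcripts each probe set binds was not tested.

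**Figure D3:**
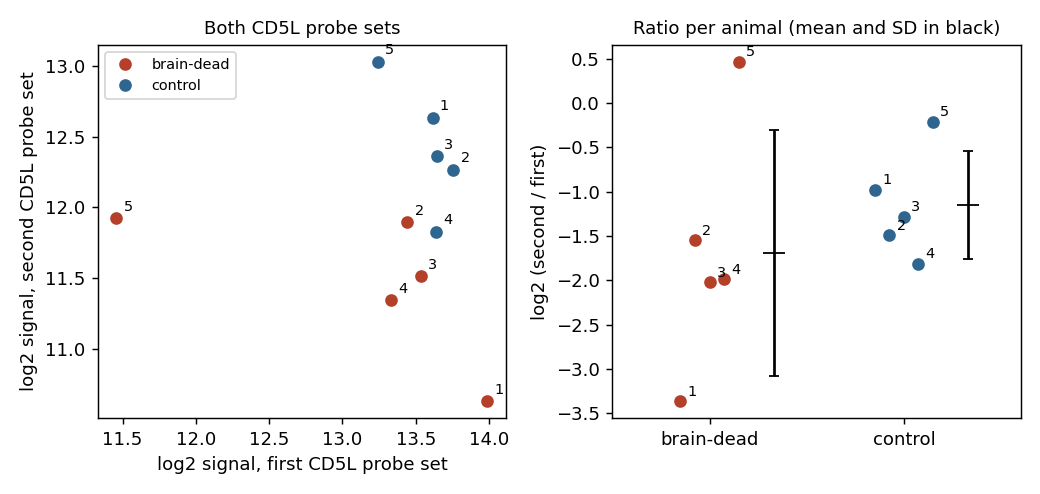
Left, log2 signal of the second CD5L probe set (vertical) against the first (horizontal) for each numbered animal; right, log2 ratio of second over first by group with mean and SD. Brain-dead animal 5 stands far to the left at the first probe set and has the highest ratio, 0.47.

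Brain-dead animal 5 was the lowest of the 10 animals at 7 of the 12 tested marker probe sets and the lowest of its group at 9 of 12. Over all tested probe sets it was the lowest of 10 in 16.1% of them and the highest of 10 in 14.4%. The sum of the 9 leading marker signals was 16635 in this animal, against 35865 to 51895 in the other brain-dead animals and 34500 to 48560 in the controls. Its median deviation from the mean of the 10 animals was -0.97 over the 12 probe sets, and the next lowest animal, brain-dead animal 4, had -0.25. It also lay farthest out on the first principal component of all tested probe sets, at -98.1. That component set the groups apart, with the other brain-dead animals between -58.4 and -27.1 and the controls between 9.7 and 77.8. Without this animal the median change of the 12 marker probe sets was -0.11, with 8 of 12 below 0, and 0 of 12 passed in limma, against 2.55% of all tested probe sets. The change of VSIG4 moved to -0.09, that of the first MRC1 probe set to -0.12 and that of TIMD4 to 0.17, while the second CD5L probe set stayed at -1.08, FOLR2 at -0.48 and MARCO at 0.63.

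**Figure D4:**
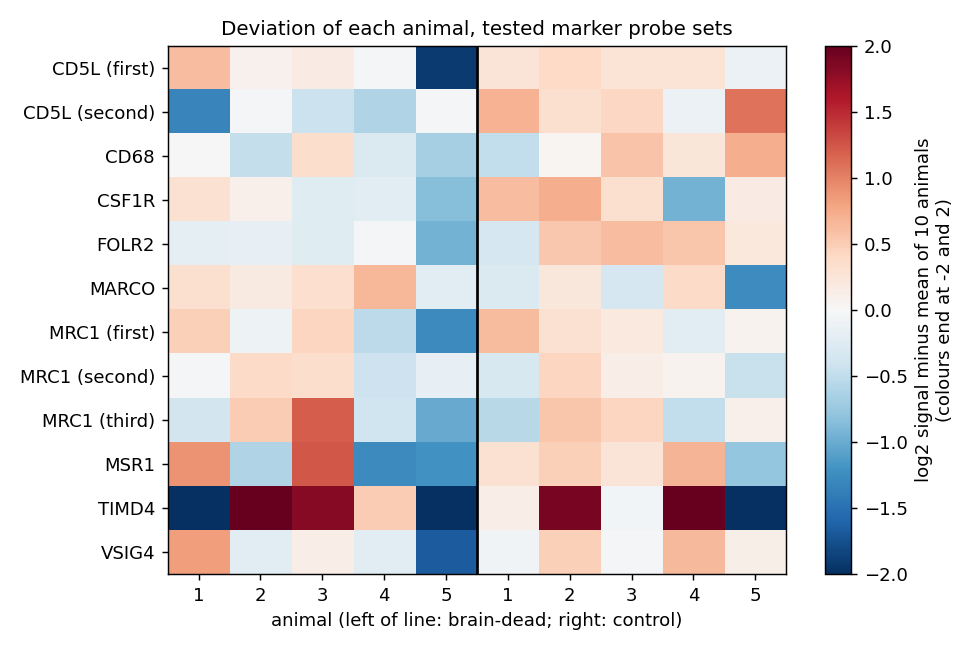
Log2 signal of each animal minus the mean of the 10 animals for the 12 tested marker probe sets, brain-dead animals left of the line and controls right of it. The column of brain-dead animal 5 is blue at most probe sets, the row of the second CD5L probe set is mostly blue on the left and red on the right, and TIMD4 holds values beyond the colour scale in both groups.

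Lower sums in brain-dead animal 5 were not limited to the 9 markers. Its summed signal was also the lowest of the 10 for lists of other resident macrophage genes, of genes shared by leukocytes, of scavenger receptors, complement uptake, lysosomal genes and genes of dead-cell uptake, and of sinusoidal endothelium and stellate cells. In the same animal the summed signals of the monocyte list (157614) and of the neutrophil list (3277) were the highest of the 10. That monocyte sum included S100A8 at 23243 and S100A9 at 32408, both the highest of the 10. The largest term of the sum was IL1R2 at 42572, which ranged from 21922 to 45268 in the controls. IL1R2 had no called change (0.33 ± 0.23 at its leading probe set). The CD14 (21358) and LYZ (6329) signals of this animal were the lowest of the brain-dead group, and its AQP9 signal (6514) was the lowest of the 10. The neutrophil sum of brain-dead animal 3 was close, at 3271. The part of that makeup in the marker values was not tested.

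Neither MARCO nor FOLR2 passed the test, and their ratio is given as a description only, since MARCO had the highest and FOLR2 the lowest change of the 9 leading probe sets and the pair was picked after those values were seen. The log2 ratio of MARCO over FOLR2 was 2.44, 2.28, 2.51, 2.62 and 2.64 in the brain-dead animals, against 1.97, 1.61, 0.97, 1.75 and 0.47 in the controls. Every brain-dead animal exceeded every control, and brain-dead animal 5 had the highest ratio. That animal was the lowest of its group at both genes, but the lowest of all 10 at FOLR2 alone. The corresponding ratio of MARCO over VSIG4 ranged from -0.31 to 1.66 in the brain-dead animals and from -1.15 to -0.001 in the controls, and that of MARCO over the first CD5L probe set from -1.13 to 0.86 in the brain-dead animals and from -1.95 to -0.71 in the controls. Both of these overlapped.

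The spread between animals was larger in the brain-dead group for 7 of the 12 marker probe sets (58.3%), against 48.4% of all tested probe sets. The interaction of brain death with sex passed for 0 of 26653 probe sets in limma, with 1015 at an unadjusted p under 0.05, none of them a marker. The lowest unadjusted p among the markers was that of VSIG4, 0.141 (limma, Benjamini-Hochberg adjusted p = 1.00), with changes of -0.96 in males and 0.18 in females.

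Other genes of resident macrophages were measured for comparison, from a list of 22 of which 14 were tested. Some are shared with other lists: LYVE1 with sinusoidal endothelium, STAB1 with scavenger receptors and SLC40A1 with haemoglobin clearance. The lists are therefore not independent of each other. In limma 0 of 14 passed, 2 had an unadjusted p under 0.05, and 13 changes were below 0 with a median of -0.21. Without brain-dead animal 5 these were 10 of 14 and -0.13. The complement component C1QA, made by macrophages, had a change of -0.33 ± 0.27 at its leading probe set and the iron exporter SLC40A1 one of -0.19 ± 0.23 (limma, Benjamini-Hochberg adjusted p = 0.504 and 0.660). A second C1QA probe set fell, with a log2 change of -1.31 (adjusted p = 0.0444, limma with Benjamini-Hochberg), a call lost under 11 of 23 alternatives, with adjusted p between 0.00549 and 0.111. SIGLEC1, the sialic acid receptor sialoadhesin, was noticed after its values were seen. Its signals were 1489, 1077, 1575, 1089.5 and 927 in the brain-dead animals, against 2501, 2086, 1849, 1652 and 1863 in the controls, without overlap (change -0.71 ± 0.22; limma, Benjamini-Hochberg adjusted p = 0.0688). Groups without overlap occurred in 7.8% of all tested genes.

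Receptors and adaptors of uptake gave 1 call among the 13, 11, 8 and 7 genes tested in the lists below, against 6.77% of all tested genes called. Of 13 genes of dead-cell uptake tested, ELMO1, an adaptor that links engulfment receptors to the Rac GTPase, fell, with a log2 change of -1.37 ± 0.28 (adjusted p = 0.0168, limma with Benjamini-Hochberg), and 0 rose. ELMO1 signals were 773, 595, 482, 424 and 268 in the brain-dead animals, against 1498, 1442, 1431, 999 and 927 in the controls, with no overlap. Of all tested genes, 7.8% had groups without overlap. The same list held PROS1 at -0.28 ± 0.22 and RAC1 at 0.25 ± 0.21. Of 11 other scavenger receptors 0 passed in limma and 3 had an unadjusted p under 0.05, with the lipopolysaccharide co-receptor CD14 at -0.16 ± 0.23 and the fatty acid and lipoprotein receptor CD36 at -1.05 ± 0.31 (limma, Benjamini-Hochberg adjusted p = 0.722 and 0.0629). Of 8 genes of complement uptake 0 passed in limma and 3 had an unadjusted p under 0.05; complement factor I (CFI) stood at -0.54 ± 0.22. Of 7 genes of haemoglobin clearance, the pathway of CD163, 0 passed in limma and 1 had an unadjusted p under 0.05, with haptoglobin (HP) at -0.13 ± 0.14 and haemopexin (HPX) at 0.03 ± 0.14. Another HPX probe set stood at 0.42 ± 0.17 (limma, Benjamini-Hochberg adjusted p = 0.147), without overlap of the groups, against 6.93% of all tested probe sets without overlap.

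Genes of activated and recruited myeloid cells did hold calls. Of 13 pro-inflammatory activation genes tested, 5 rose and 0 fell, with a median of 0.55, against 2.9% of all tested genes called higher and 3.87% called lower. The mitochondrial superoxide dismutase SOD2 rose by 2.36 ± 0.33, the cytokine IL1B by 2.25 ± 0.39, the monocyte chemoattractant CCL2 by 2.33 ± 0.50 and the cytokine IL6 by 2.36 ± 0.53 (limma, Benjamini-Hochberg adjusted p = 0.00338, 0.00801, 0.0194 and 0.0226). The chemokine CXCL9 was the other call, at 2.89 ± 0.73 (limma, Benjamini-Hochberg adjusted p = 0.0364), lost under 9 of 22 alternatives. Without brain-dead animal 5 the count was 3. A further probe set of SOD2 stood at -0.03, and a non-leading one of CD80, a costimulatory ligand, rose by 1.61 ± 0.36 (limma, Benjamini-Hochberg adjusted p = 0.0234). The leading CD80 probe set stood at 0.14 ± 0.32. Hepatocytes and endothelium can also make SOD2, CCL2 and IL6, and the cells behind these signals were not tested.

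Of 13 genes of monocytes and recruited macrophages, 2 rose and 0 fell, against 2.9% of all tested genes called higher and 3.87% called lower. The list had a median of 0.33, with 4 changes below 0. The 2 that rose were the calgranulins S100A9 at 3.54 ± 0.63 and S100A8 at 3.85 ± 0.74 (limma, Benjamini-Hochberg adjusted p = 0.00911 and 0.0128), which neutrophils also make in quantity. The proteoglycan versican (VCAN), made by monocytes and by stromal cells, had changes between 0.95 and 1.69 at its 5 probe sets. Of these 3 rose, while the leading one stood at 1.62 ± 0.46 (limma, Benjamini-Hochberg adjusted p = 0.0549). Those 3 calls were lost under 14 of 22, 12 of 22 and 7 of 23 alternatives. Another probe set of FCN1, the ficolin of monocytes, rose by 1.45 ± 0.33 (limma, Benjamini-Hochberg adjusted p = 0.0244), a call lost under 6 of 22 alternatives, whereas the leading one stood at 0.27 ± 0.32. The 4 genes below 0 were AQP9 at -1.04 ± 0.34, CLEC12A at -0.76 ± 0.40, FPR1 at -0.26 ± 0.32 and CD14 at -0.16 ± 0.23. AQP9 had the lowest adjusted p of these (0.0910, limma with Benjamini-Hochberg). Its mean control signal was 33663, against 29762 for CD14, 418 for FPR1 and 282 for CLEC12A. Which liver cells gave the AQP9 signal was not tested. VCAN, FCN1 and these 4 are named here after their values were seen.

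The summed signal of 7 neutrophil markers ranged from 1355 to 3277 in the brain-dead animals and from 879 to 1901 in the controls. Of 4 neutrophil markers tested 0 passed in limma and 3 had an unadjusted p under 0.05, against 25.1% of all tested genes. The antimicrobial peptide CAMP stood at 1.19 ± 0.37 and the G-CSF receptor CSF3R at 0.76 ± 0.34 (limma, Benjamini-Hochberg adjusted p = 0.0734 and 0.195). Also tested, and named after the values were seen, were MMP9 at 1.69 ± 0.71 and ELANE at -0.38 ± 0.40. Of 17 genes shared by leukocytes 0 passed in limma and 3 had an unadjusted p under 0.05, with a median of -0.13 that became 0.07 without brain-dead animal 5 (10 and then 6 of 17 below 0), and the lysosomal protease CTSS stood at -0.21 ± 0.32 and the signalling adaptor TYROBP at -0.11 ± 0.42. Named after their values were seen, the 3 were PTPRC at 0.87 ± 0.29, ITGAM at -0.95 ± 0.35 and MS4A7 at -0.87 ± 0.38. Their adjusted p was 0.0940, 0.123 and 0.183 (limma with Benjamini-Hochberg). Further PTPRC probe sets stood at 0.51 and 0.47. Of 13 genes of alternative activation 0 passed in limma and 2 had an unadjusted p under 0.05, with a median of -0.16 and 8 changes below 0. In that list arginase 1 (ARG1, which hepatocytes also make) stood at -0.58 ± 0.30 and the IL1 receptor antagonist IL1RN at 0.45 ± 0.33. Seen after the values were known, another probe set of IL4R, the IL4 receptor alpha chain, rose by 1.66 ± 0.35 without overlap of the groups (limma, Benjamini-Hochberg adjusted p = 0.0180), while the leading one stood at 0.06 ± 0.26. Also without overlap, the transglutaminase TGM2 stood at 1.05 ± 0.29 (limma, Benjamini-Hochberg adjusted p = 0.0508). Groups were without overlap in 6.93% of all tested probe sets. Below 0 in the same list, and likewise named after the values were known, CCL24 stood at -0.88 ± 0.49 and PPARG at -0.84 ± 0.35 (limma, Benjamini-Hochberg adjusted p = 0.295 and 0.169). Of 4 genes of receptor shedding 0 passed in limma and 1 had an unadjusted p under 0.05, the sheddase ADAM10 at 0.58 ± 0.21. The difference between these lists and the 9 markers was not tested.

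**Figure D5:**
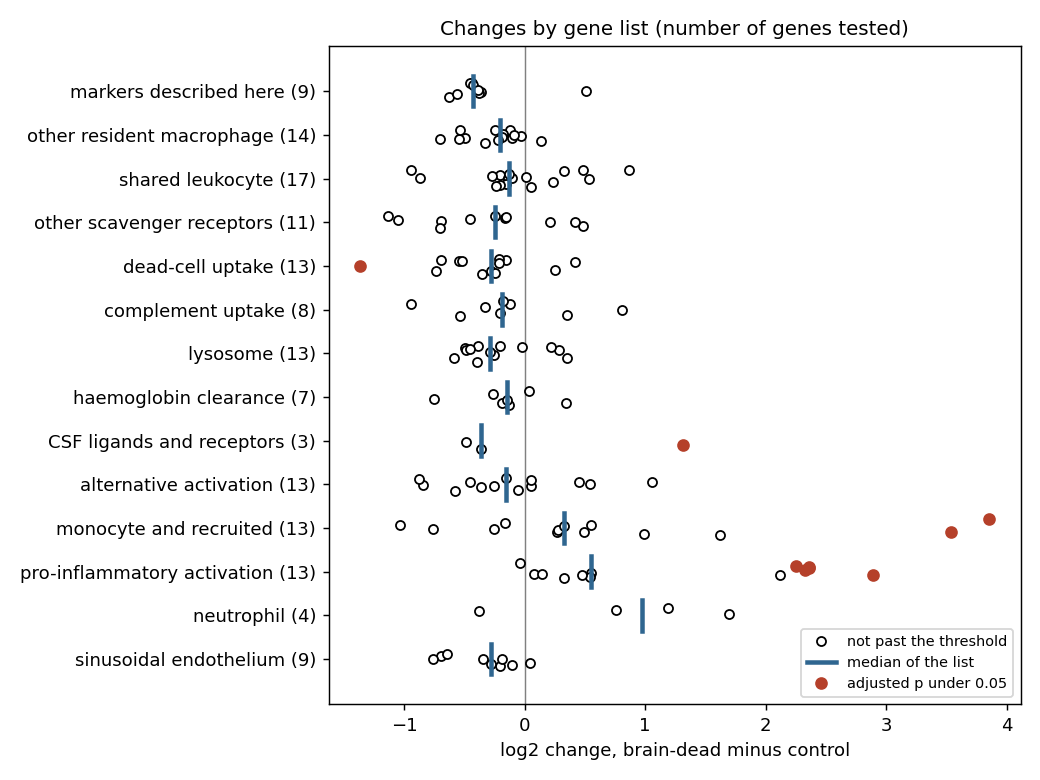
Log2 change, brain-dead minus control (horizontal axis), of the tested genes of each list, with the number tested in brackets. Filled points passed an adjusted p of 0.05 in limma and blue bars are list medians; the 9 markers hold no filled point and a median of -0.43, while pro-inflammatory activation holds 5 filled points, all above 0.

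Other liver cell types were measured with the same lists. In limma 0 of 6 tested hepatocyte markers passed and 3 had an unadjusted p under 0.05, with a median of -0.30. Of 6 probe sets of SERPINA1 1 rose, by 1.17 ± 0.32 (limma, Benjamini-Hochberg adjusted p = 0.0464), a call lost under 15 of 23 alternatives, and its leading one stood at -0.16 ± 0.13. The summed hepatocyte signal ranged from 439802 to 491933 in the brain-dead animals and from 506763 to 646786 in the controls, which did not overlap. Of 9 markers of sinusoidal endothelium 2 had an unadjusted p under 0.05, and their summed signal ranged from 49171 to 66466 in the brain-dead animals and from 55840 to 84096 in the controls, with the lectins FCN2 and FCN3 at -0.19 ± 0.23 and -0.28 ± 0.26. Of 4 markers of T and NK cells, 2 of B and plasma cells, 3 of dendritic cells, 4 of stellate cells, 2 of cholangiocytes and 3 of erythroid cells and platelets, 0 passed and 0 had an unadjusted p under 0.05 in limma. What part these shifts have in the marker values was not tested.

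The genes most like 3 markers over the 10 arrays were found by the mean absolute difference of standardised log2 signals among 9835 genes, as a description in which all genes share the same arrays. Most like the first CD5L probe set were HRG, the plasma histidine-rich glycoprotein of hepatocytes, at 0.186 SD, then LOC704728 at 0.230 SD and PAX8 at 0.290 SD. The first MRC1 probe set was most like PTPRB, an endothelial receptor phosphatase, at 0.145 SD, then EPB41L3 at 0.169 SD and REEP1 at 0.179 SD. MARCO had no neighbour as near, with PAGE4 at 0.356 SD, MOGS at 0.375 SD and SOX12 at 0.411 SD.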

How the data were processed

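The deposited values are linear intensity signals, 1 for each probe set on each array, made by the authors with MAS5 per the submitters' processing notes (version not given in the sources used here). Every array had a 2% trimmed mean of 1000, and medians lay between 175 and 227. Per the labels' protocols, Trizol extraction was followed by column purification.

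The deposited signals were converted to log2 with no pseudocount. After 99 control probe sets were left out, 26653 probe sets above the array median on 5 or more of 10 arrays were tested with limma 3.58.1 in R 4.3.3 (lmFit, eBayes with trend) on group only, Benjamini-Hochberg adjusted over all of them, at 0.05. Errors are limma's SE. Input was read with the R package data.table (1.17.8), and age relations and figures used scipy 1.17.1 and matplotlib 3.10.9 in Python 3.11.15. Names came from the 2016 platform annotation. Of a gene's probe sets, "first" is the one with the highest mean signal, which stands for the gene. Of each further list, up to 4 genes past the threshold are named by adjusted p, and, where fewer than 2 passed, also the 2 with the highest mean signal. The members and lists were chosen with earlier results of these data known. Groups and animal numbers are those of the labels. Alternatives were other scalings, pseudocounts, filters, covariates, eBayes settings, array weights, a replicate block and leaving out arrays. The script was tested on simulated data. Counts of changes below 0 and single list genes were recomputed under these alternatives by a choice made after seeing the data.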

Additional observations from a re-analysis of the deposited data

Results flagged for a closer look

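Within groups of 5 animals, 4 marker values of the 28 groups examined lay far from the rest of their group by Dixon's criterion on log2 signals, where chance alone gives about 1.4. Brain-dead animal 5 had a signal of 2814 at the first CD5L probe set, against 10292 to 16265 in the other brain-dead animals. The same animal had 820.1 at FOLR2, against 1336 to 1531 in the others. Brain-dead animal 4 had 8.04 at the second MSR1 probe set, which did not pass the filter on low signals, against 91.7 to 222 in the others. Control animal 5 had 9683 at the first CD5L probe set, against 12554 to 13849.8 in the other controls.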

How the results depend on the processing

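The count of marker probe sets past the threshold was 0 in the reported setting and 1, the second CD5L probe set, with array weights, with a replicate block and without control animal 4 (range 0 to 1 when each animal was left out). Changes below 0 numbered 8 to 11 of 12 (7 of 9 with the filter at the 75th percentile), and their median ranged from -0.55 to -0.11. TIMD4 and both lower-signal MRC1 probe sets crossed 0 under some alternatives, and the other 9 tested probe sets kept their sign under all of them. The number of all probe sets past the threshold was 1627. It was 1056 without the filter, 1035 with sex and age in the model, 674 without both animals numbered 1 and 3013 with a replicate block. Leaving out each animal in turn gave 660 to 2289, and the count fell by more than 1.5 times without brain-dead animals 3 (892), 4 (849) and 5 (680) and control animals 1 (856), 2 (660) and 3 (735). The correlations of same-numbered deviations were all positive, at 0.38, 0.064, 0.13, 0.089 and 0.13, and since not every one exceeded 0.1 the numbers were not taken as pairs. On principal component 2 the pair numbered 1 stood away from the rest (72.1 in the brain-dead and 69.6 in the control animal, all others between -36.1 and 26.5), and 2 of 5 brain-dead animals correlated best with their own number. Whether the numbers mark a shared day or batch was not tested. Of the named list genes, IL6 lost its call under 6 of 22 alternatives (sex and age in the model, both animals numbered 1 left out, or any of brain-dead animals 3 and 5 and control animals 1 and 2 left out; adjusted p up to 0.0588), CXCL9 under 9 of 22 (no filter, sex and age in the model, or any of brain-dead animals 2, 3, 4 and 5 and control animals 2, 3 and 5 left out; adjusted p up to 0.0886), and the second C1QA probe set under 11 of 23 (no filter, no trend, both animals numbered 1 left out, or any single animal left out except brain-dead animal 1 and control animal 4). The calls of S100A8, S100A9, CSF2RB, ELMO1, IL1B, CCL2 and SOD2 held under all 23. Among non-leading probe sets, that of IL4R lost its call with sex and age in the model (adjusted p = 0.0542), and those of CD80, FCN1, VCAN and SERPINA1 under 5 to 15 alternatives, for each including the fits without brain-dead animal 5 and without control animal 2. Of 132 alternative list counts, 130 stayed within 1.5 times of the main count.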
